A study of Mus musculus with 15 samples.

Results

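Microglia-gated cells taken 2 days after a contusion of the cortex were set against the same gate from sham-operated mice, in 4 samples labelled 2dpi (days post-injury) and 4 samples labelled sham, which are 8 of the 15 samples of the series. All 547 immune genes of the panel were read, and 359 of them could be tested. In both groups the mice were male C57BL6J, 3 months old by the study's methods and 2 months old by its results text. The 2 dpi mice had received a controlled cortical impact, a focal contusion of the parieto-temporal cortex through a craniotomy, and the sham mice were 2-day shams assigned at random and housed in the same cages. Whole perfused brains were digested, so cells far from the contusion are mixed with cells near it, and cells high for CD11b and low to intermediate for CD45 were sorted, a gate that does not by itself part microglia from macrophages that have entered the brain. No label says which mouse a sample came from, and the p-values below cover the spread between samples alone. Both groups were counted in a single run, the sham samples in lanes 1 to 4 and the 2 dpi samples in lanes 5 to 8, so lane and group cannot be told apart.

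Microglia are the resident macrophages of the brain. They survey it through a dense set of surface receptors, among them the receptors for fractalkine and for colony-stimulating factor 1, and they sense tissue damage through Toll-like receptors, lectins and purine receptors. After a contusion, microglia and monocytes that enter from the blood take up debris and release cytokines, chemokines and prostaglandins, and NF-κB and C/EBP factors drive many of these genes in macrophages.

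Starts of 3 of the genes that rose at 2 dpi are shown because they hold letters of motifs bound by such factors: Cxcl1 and Cxcl3, which encode chemokines for neutrophils, and Clec4e, which encodes a lectin for ligands of dead cells and mycobacteria. They are RefSeq sequences of mouse build GRCm38.p6, each 300 bases from 250 before to 50 after the start of the gene, 5′ to 3′ on the strand of the gene, and were picked after the values were seen. Cxcl1 lies at chr5:90890995-90891294 on the plus strand, Cxcl3 at chr5:90785851-90786150 on the plus strand and Clec4e at chr6:123289822-123290121 on the minus strand. Capitals mark the matches, GGGNNTTTC for NF-κB in Cxcl1 (88 and 71 bases before the start) and Cxcl3 (73 bases before it), and TTGCNNAA for C/EBP in Clec4e (66 bases before it).
Cxcl1: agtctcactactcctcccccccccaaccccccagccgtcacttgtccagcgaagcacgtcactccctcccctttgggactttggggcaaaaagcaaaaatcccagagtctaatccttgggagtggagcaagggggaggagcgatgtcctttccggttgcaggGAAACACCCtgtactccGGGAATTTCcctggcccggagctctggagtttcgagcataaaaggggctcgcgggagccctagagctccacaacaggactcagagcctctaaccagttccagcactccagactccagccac
Cxcl3: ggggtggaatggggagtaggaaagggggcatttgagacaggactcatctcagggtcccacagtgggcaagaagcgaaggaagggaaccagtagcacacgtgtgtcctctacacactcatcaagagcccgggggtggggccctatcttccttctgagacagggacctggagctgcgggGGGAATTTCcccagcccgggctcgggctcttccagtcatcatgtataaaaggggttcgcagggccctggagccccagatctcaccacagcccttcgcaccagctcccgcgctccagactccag
Clec4e: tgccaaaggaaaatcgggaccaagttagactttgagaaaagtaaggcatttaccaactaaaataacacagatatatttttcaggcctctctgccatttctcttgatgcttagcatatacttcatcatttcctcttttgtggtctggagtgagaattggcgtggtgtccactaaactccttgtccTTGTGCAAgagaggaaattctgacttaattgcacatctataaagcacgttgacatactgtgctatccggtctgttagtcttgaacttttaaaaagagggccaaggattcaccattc

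Both strands were searched, and none of these matches overlapped another motif searched. Of the 26 genes that rose, 21 had a promoter in the table, and the NF-κB letters were in 4 of them (Cxcl1, Cxcl3, Cxcr4 and Il1rn). Of the 43 genes that fell under both scalings described next, 37 had a promoter and 3 held them (Il16, Tlr3 and Tnfrsf17), beside 11.4% of the tested genes and 5.06% of all promoters. The AP-1 letters TGANTCA were in 3 higher genes (Ikbke, Il1rn and Lif) and 2 lower genes (Il16 and Tlr9), beside 11.4% of the tested genes and 8.97% of all promoters. The C/EBP letters were in 2 higher genes (Clec4e and Ptgs2) and 8 lower genes, beside 12.9% of the tested genes and 12.2% of all promoters. A match of letters is a description and not a binding site. The genes with no entry included Cd24a, Fn1, Lilrb4, Msr1 and Pdgfrb among the higher genes and Csf1r, Il10ra, Nfatc1, Pdgfb and Tcf4 among the lower genes.

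Counts below are normalized counts, the raw count of the color-coded probe scaled by positive controls and by 14 housekeeping genes. Background was passed in a sample where a count exceeded the mean of the 8 negative controls by over 2 SD, a limit of 20.5 to 31.6 normalized counts in the 2 dpi samples and 17.7 to 53.0 in the sham samples. Endogenous counts summed to 95257 to 191160 in the 2 dpi samples and 66905 to 280528 in the sham samples. Relative to the housekeeping genes, the endogenous total was 12.6 ± 1.02 at 2 dpi and 17.1 ± 2.72 in sham (SD, n = 4 each; exact two-sided permutation p = 0.0286, the smallest the design allows, and 0.0857 after Benjamini-Hochberg adjustment over 3 such tests). The median over the tested genes of the log2 normalized count plus 1, less its sham mean, was -0.30 ± 0.14 at 2 dpi and 0.0051 ± 0.19 in sham (exact permutation p = 0.0571, adjusted 0.0857), and the genes above background numbered 328 ± 7.14 at 2 dpi and 302 ± 30.2 in sham (exact permutation p = 0.257, adjusted 0.257; n = 4 each). Over all tested genes the median of the log2 fold changes was -0.30, and it was -0.04 with TMM scaling, which centers the bulk of the genes and does not use the housekeeping genes. Of the 359 genes, 261 lay below 0 with the housekeeping scaling and 200 with TMM. In bulk samples, fewer cells of a type and less RNA per cell cannot be told apart.

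At 2 dpi, 26 genes were higher than in sham, among them chemokines, interleukin 1, scavenger receptors and matrix proteins, and 101 were lower, among them receptors, kinases and transcription factors (edgeR quasi-likelihood test, adjusted p under 0.05 over all tested genes). These are 7.24% and 28.1% of the 359, and the count called in each gene list below is to be read beside such shares. With TMM scaling 47 genes (13.1%) were higher and 43 (12%) lower, and all 26 (7.24%) and these 43 (12%) were called in both scalings. The other lower genes hold only under the housekeeping scaling. Positive controls alone do not adjust for the amount of RNA in a sample. With them 20 genes were higher, 17 of them among the 26, and 1, Tlr5, was lower. Cd36, Cd274, Fn1, Mapkapk2, Nfil3, Pdgfrb, Tgfbi, Tlr2 and Tnf were the higher genes that lost their call there. All 4 samples at 2 dpi lay above the 4 sham samples in 15 of the tested genes (4.18%) and below them in 87 (24.2%). Among the calls in both scalings, the groups did not overlap in 14 of the 26 higher and 40 of the 43 lower genes. Here and below, overlap was judged on counts with the housekeeping scaling alone. It was not examined with TMM, so it is no support apart from that scaling. When each sample was left out in turn with the housekeeping scaling, 14 of the 26 and 42 of the 43 kept their call in every one of the 8 fits. The counts themselves fell to 15 higher genes without 2 dpi 1 and 17 without sham 3, and to 60 lower genes without sham 2 and 62 without 2 dpi 3. The count lower in both scalings fell to 18, 23, 28 and 20 without 2 dpi 1, 2 dpi 3, sham 2 and sham 3. Higher genes were often dim, with a mean under 100 normalized counts in both groups for 10 of the 26, against 2 of the 43 lower genes.

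**Figure D1:**
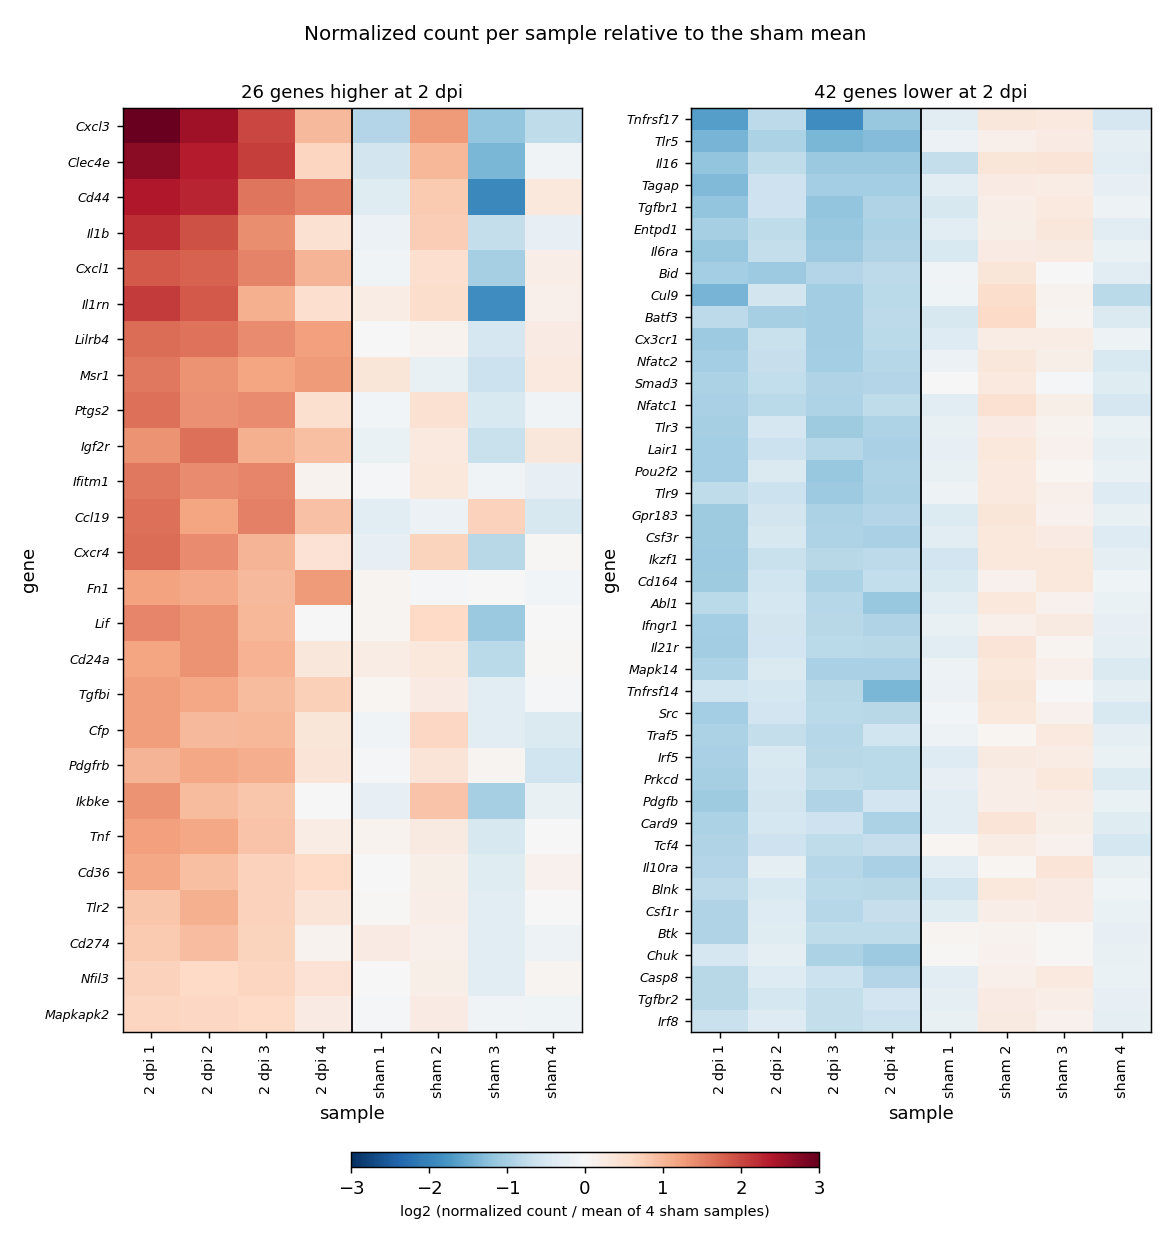
Log2 of the normalized count over the mean of the 4 sham samples (color, -3 to 3) for the 26 genes higher (left) and 42 of the 43 genes lower (right) at 2 dpi in both scalings, with a column for each sample. Sample 2 dpi 4 is the palest of the 2 dpi samples among the higher genes and 2 dpi 2 among the lower genes.

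The 2 dpi samples were not alike in the size of the response. Among the 26 higher genes, 2 dpi 1 was the highest in 20 and 2 dpi 4 the lowest in 24, and in 14 the samples ranked 2 dpi 1, 2, 3 and 4 from the highest. The median of the 26 genes relative to the sham mean was 1.41, 1.35, 1.06 and 0.47 on the log2 scale in 2 dpi 1 to 4, against -0.04, 0.32, -0.49 and -0.04 in sham 1 to 4. The lower genes had another order. Their median was -1.01, -0.56, -0.91 and -0.88 in 2 dpi 1 to 4, with 2 dpi 2 the highest in 39 of 43, against -0.31, 0.27, 0.19 and -0.27 in sham 1 to 4.

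Among the chemokines, 3 of 18 tested genes were higher and 1 was lower, beside 7.24% and 28.1% of all tested genes. Cxcl1 had 115, 109, 89.96 and 64.1 normalized counts in 2 dpi 1 to 4, against 29.4, 45.2, 16.04 and 36.8 in sham 1 to 4. Every 2 dpi sample lay above every sham sample, and the log2 fold change was 1.60 ± 0.34 (SE, adjusted p = 0.00225). Cxcl3, another such chemokine from the same cluster of genes, had 198, 146, 101 and 49.2 at 2 dpi, against 13.7, 60.8, 11.2 and 14.7 in sham, where sham 2 stood above 2 dpi 4. Its log2 fold change was 2.38 ± 0.52 (adjusted p = 0.00323). Ccl19, a ligand of Ccr7, was near background at 22.7 to 39.0 at 2 dpi, against 8.83 to 19.8 in sham, and lost its call without 2 dpi 1, 2 dpi 3, sham 2 or sham 4 (adjusted p up to 0.0544). Its call was also lost with the negative-control mean subtracted (adjusted p = 0.128) and without both 2 dpi 3 and sham 4 (adjusted p = 0.107). Ccl6, a chemokine of macrophages, was the lower gene, at 93.9, 107, 94.9 and 106 at 2 dpi against 135, 168, 132 and 124 in sham. Its groups were apart, and its call (-0.47 ± 0.15, adjusted p = 0.0203) was lost with TMM (adjusted p = 0.327) and without 2 dpi 1, 2 dpi 3 or sham 2 (adjusted p up to 0.066). Ccl3 and Ccl4 were abundant and not called. Ccl3, a chemokine that macrophages secrete, averaged 4160.3 ± 728 at 2 dpi and 4053 ± 433 in sham, and Ccl4, another, averaged 3592 ± 744 at 2 dpi and 3223 ± 381 in sham (SD, n = 4 each), both picked after their values were seen. The median log2 fold change of the list was 0.18, beside -0.30 over all tested genes.

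Of 16 tested cytokines, Il1b, Il1rn, Lif and Tnf were higher and Il16 and Il18 lower, with a list median of 0.20. The 4 higher genes became 1 without 2 dpi 1, 2 dpi 2 or sham 3, and 2 without 2 dpi 3, sham 1 or sham 4, and with TMM or with the count model DESeq2 and its own size factors 8 were higher and 1 lower. Il1b, the main secreted interleukin 1, had 1153, 937, 659 and 344 normalized counts in 2 dpi 1 to 4, against 221, 416, 153 and 209.7 in sham 1 to 4. Only sham 2 stood above a 2 dpi sample, 2 dpi 4, and the log2 fold change was 1.64 ± 0.33 (adjusted p = 0.00235). Il1rn, which encodes the receptor antagonist of interleukin 1, had 156, 130.3, 76.3 and 52.4 at 2 dpi, against 43.1, 53.0, 10.2 and 40.5 in sham. Its log2 fold change of 1.56 ± 0.51 (adjusted p = 0.0277) lost its call without 2 dpi 1, 2 dpi 2 or sham 3 (adjusted p up to 0.0816). Tnf, the tumor necrosis factor, had 2152, 2044, 1666 and 1080.0 at 2 dpi, against 989, 1112, 660.3 and 916 in sham, with sham 2 above 2 dpi 4. Its call (0.92 ± 0.33, adjusted p = 0.0394) was lost without 2 dpi 1, 2 or 3 or any one sham sample (adjusted p up to 0.109), and with limma on the authors' values. Lif, a cytokine of the interleukin 6 family, had 18.8 to 51.2 at 2 dpi and 8.55 to 28.1 in sham, with 3 of 4 samples above background at 2 dpi and none in sham, so that it was at least 1.10-fold higher. Its call was lost when any of 2 dpi 1, 2 and 3 and sham 1, 3 and 4 was left out (adjusted p up to 0.142). Il18, another member of the interleukin 1 family, had 65.8 to 83.6 at 2 dpi, against 76.5 to 147 in sham, and was called lower (log2 fold change -0.68 ± 0.20, adjusted p = 0.0141), though not with TMM (adjusted p = 0.0538) nor without sham 2 or sham 3 (adjusted p up to 0.052).

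Genes for the uptake of debris and for matrix were next. Of 12 tested scavenger, matrix and protease genes, 5 were higher and 1, Ctss, was lower, beside 7.24% and 28.1% of all tested genes. The list median was 0.64. Msr1, a scavenger receptor for modified lipoproteins, had 193, 163, 146 and 156 normalized counts at 2 dpi, against 82.2, 54.6, 41.2 and 78.7 in sham. Tgfbi, a secreted matrix protein, had 538, 506, 433 and 368 at 2 dpi, against 237, 267, 182 and 218 in sham. The groups were apart in both genes, with log2 fold changes of 1.38 ± 0.22 for Msr1 and 1.03 ± 0.19 for Tgfbi (adjusted p = 0.00129 and 0.00161). Fn1, which encodes fibronectin, had 606, 576, 511 and 638 at 2 dpi, against 278, 257, 263 and 248 in sham. Here 2 dpi 4 was the highest of its group, and the log2 fold change was 1.16 ± 0.33 (adjusted p = 0.0147).

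Cd36, a receptor for oxidized lipid and fatty acids, had 109.8, 92.4, 80.03 and 75.0 at 2 dpi, against 49.0, 56.1, 38.5 and 54.4 in sham. The groups were apart, yet the call (log2 fold change 0.86 ± 0.26, adjusted p = 0.0182) was lost without 2 dpi 1 or sham 3 (adjusted p up to 0.0623). Igf2r, the mannose 6-phosphate receptor that carries enzymes to lysosomes, had 33.6 to 56.4 at 2 dpi and 11.2 to 22.8 in sham, with a log2 fold change of 1.28 ± 0.30 (adjusted p = 0.00424). Tgfbi, Fn1, Tlr2 and Cd36 were not called higher with positive controls alone (adjusted p = 0.0858, 0.0696, 0.331 and 0.107).

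The Toll-like receptors were divided. Of 7 tested, Tlr2 was the only one called higher, and Tlr3, Tlr5 and Tlr9 were called lower, each in both scalings and with any single sample left out. Tlr2, a receptor for bacterial lipoproteins and some products of damaged tissue, had 665, 779.7, 604 and 490.0 normalized counts at 2 dpi, against 386, 433, 301 and 379.7 in sham (log2 fold change 0.76 ± 0.18, adjusted p = 0.00493). Tlr9, an endosomal receptor for DNA, had 192, 208, 153 and 167 at 2 dpi, against 294, 398, 361 and 247 in sham (-0.85 ± 0.17, adjusted p = 0.00205). The groups were apart in both genes, in opposite directions.

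Tlr3, the endosomal receptor for double-stranded RNA, had 61.0, 86.5, 58.3 and 64.1 at 2 dpi, against 106, 145, 133 and 107 in sham (log2 fold change -0.86 ± 0.19, adjusted p = 0.00323). Tlr5, the receptor for flagellin, had 22.0, 30.1, 22.3 and 23.4 at 2 dpi, against 50.9, 63.9, 68.4 and 47.8 in sham (-1.24 ± 0.23, adjusted p = 0.00161). At 2 dpi the counts of Tlr5 were thus near the background limit. Values of the uncalled receptors were picked after they were seen. Tlr4, the receptor for lipopolysaccharide, averaged 102 ± 10.8 at 2 dpi and 133 ± 35.8 in sham, and Tlr1, a partner of Tlr2, averaged 84.7 ± 12.2 at 2 dpi and 109 ± 19.9 in sham (SD, n = 4 each; adjusted p = 0.108 and 0.0896). Tlr8 was not called with the housekeeping scaling (adjusted p = 0.109) and was called higher with TMM (adjusted p = 0.0243), with DESeq2's own size factors, with the negative controls subtracted and with limma on the authors' values, at 14.8 to 30.5 at 2 dpi and 10.7 to 19.6 in sham.

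None of 12 tested co-receptors, adaptors and kinases of these receptors was called higher, and the median of the list was -0.39. Irak1 and Irak4, kinases that act after the adaptor Myd88, were called lower with the housekeeping scaling (log2 fold changes -0.47 ± 0.16 and -0.53 ± 0.18, adjusted p = 0.0277 and 0.0296) and neither with TMM (adjusted p = 0.256 and 0.246). Each also lost its call without any of 4 samples (adjusted p up to 0.0855 and 0.113), which were 2 dpi 1, 2 dpi 3, 2 dpi 4 and, for Irak1, sham 2 or, for Irak4, sham 3. Cd14, the co-receptor of Tlr4 and Tlr2, averaged 1106 ± 256 at 2 dpi and 958 ± 119 in sham, with overlapping groups. Myd88 averaged 61.0 ± 9.53 at 2 dpi and 81.7 ± 16.2 in sham (SD, n = 4 each; adjusted p = 0.425 for Cd14 and 0.155 for Myd88).

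**Figure D2:**
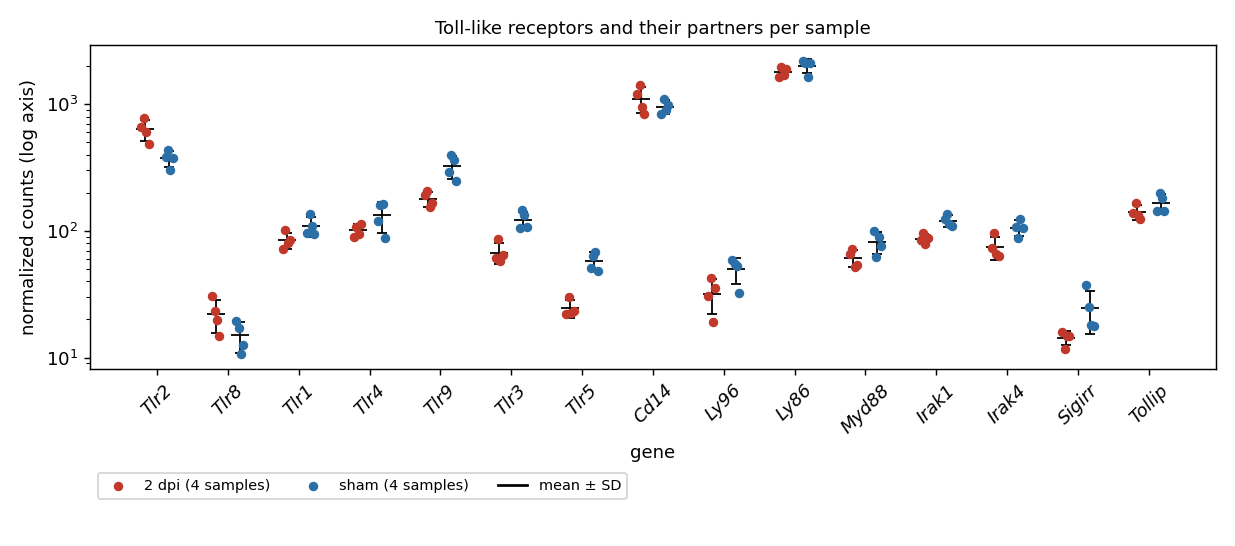
Normalized counts (log axis) of 7 Toll-like receptors and 8 of their partners in each of the 4 samples at 2 dpi (red, left of each pair) and the 4 sham samples (blue, right), with mean ± SD. Tlr2 lies higher at 2 dpi without overlap, at 490.0 to 779.7, and Tlr9, Tlr3 and Tlr5 lie lower without overlap.

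The list of lectins and their transducers also held changes in both directions. Clec4e was the only one of 13 tested genes of this list called higher, with 209, 163, 135 and 50.01 normalized counts at 2 dpi, against 21.5, 63.9, 12.3 and 29.4 in sham. Sham 2 stood above 2 dpi 4, and the log2 fold change was 2.19 ± 0.58 (adjusted p = 0.0105). Genes for several proteins that signal from such receptors were among the 6 lower genes of the list, of which 4 were lower with TMM. The shares lower over all tested genes were 28.1% and 12%. Card9, an adaptor that links lectins to NF-κB, had 205, 276, 258 and 207 at 2 dpi, against 315, 516, 451 and 308 in sham (-0.75 ± 0.19, adjusted p = 0.00598). Prkcd, the kinase that activates it, had 541, 767, 643 and 619 at 2 dpi, against 910.5, 1252, 1347 and 818 in sham (-0.75 ± 0.18, adjusted p = 0.00407). The tyrosine kinase Btk and the adaptor Blnk were lower too, with changes of -0.67 ± 0.16 and -0.72 ± 0.19 on the log2 scale, and Blnk was the one of these 4 whose groups overlapped. Tyrobp, the membrane adaptor of many microglial receptors, averaged 3068 ± 371 at 2 dpi and 3722 ± 485 in sham and was not called (SD, n = 4 each; adjusted p = 0.156).

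Among 10 tested inhibitory receptors and ligands, Lilrb4 and Cd274 were higher and Lair1 and Ptpn6 lower. Lilrb4, an inhibitory receptor of myeloid cells, had 472, 459.9, 396 and 351 normalized counts at 2 dpi, against 151, 161, 105 and 177 in sham (log2 fold change 1.5 ± 0.32, adjusted p = 0.00323). Lair1, an inhibitory receptor for collagen, had 286, 372, 322 and 296 at 2 dpi, against 489.5, 728, 631 and 471 in sham (-0.86 ± 0.17, adjusted p = 0.00205). The groups were apart in each, so the list held changes in both directions and its median was 0.07. With TMM 3 were higher and 1 was lower. The rise of Lilrb4 was not called with limma on the values the authors normalized. Ptpn6, the phosphatase SHP-1 on which such receptors act, was not called lower with TMM (adjusted p = 0.353) nor without 2 dpi 1, 2 dpi 3, 2 dpi 4 or sham 3 (adjusted p up to 0.0743). Cd274, the ligand PD-L1, had 68.0 to 119.6 at 2 dpi and 49.7 to 74.4 in sham, and its call (0.68 ± 0.22, adjusted p = 0.0231) was lost without 2 dpi 1, 2 dpi 2, 2 dpi 3 or sham 3 (adjusted p up to 0.0803).

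Most genes of the resident state of microglia were called lower with the housekeeping scaling. Of 11 tested, 8 were called lower with it (6 without 2 dpi 1, 2 dpi 3, 2 dpi 4, sham 2 or sham 3), beside 28.1% of all tested genes. With TMM 5 were lower (Cx3cr1, Entpd1, Cd164, Csf1r and Irf8), beside 12%, and with positive controls alone none was. None was higher, and all 11 lay below 0, with medians of -0.50 with the housekeeping scaling and -0.24 with TMM. Cx3cr1, the fractalkine receptor, had 2666, 3621, 2784 and 3260.3 normalized counts at 2 dpi, against 4347, 6713, 6633 and 5184 in sham (log2 fold change -0.89 ± 0.15, adjusted p = 0.00129). Csf1r, the receptor that microglia need to survive, had 4764, 6733, 4911 and 5463 at 2 dpi, against 6929, 10193, 10524 and 7767 in sham (-0.70 ± 0.16, adjusted p = 0.0035). The groups were apart in both genes, and in Csf1r 2 dpi 2 lay just under sham 1. Entpd1, which encodes CD39, an enzyme that removes extracellular ATP, had 359.9, 429.7, 331 and 372 at 2 dpi, against 583, 817, 910.0 and 581 in sham. Cd164, a sialomucin, had 364, 502, 393 and 455 at 2 dpi, against 560.0, 842, 958 and 697 in sham. Trem2, a lipid receptor, Cd81, a tetraspanin, and Ctss, a cathepsin, were called lower with the housekeeping scaling and not with TMM (adjusted p = 0.254, 0.422 and 0.156), and Trem2 and Cd81 not without 2 dpi 1, 2 dpi 3, 2 dpi 4, sham 2 or sham 3 (adjusted p up to 0.082 and 0.0901). The integrin gene Itgam, which encodes the CD11b of the sorting gate, averaged 1627 ± 165 at 2 dpi and 1999 ± 299 in sham and was not called (SD, n = 4 each; adjusted p = 0.134).

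Receptors for chemoattractants and cytokines held calls in both directions. Of 12 tested receptors of chemokines and other attractants, Cxcr4 was higher and 5 were lower, with a median of -0.42, and with TMM 2 were higher and 3 lower. Gpr183, an oxysterol receptor, had 386, 557, 424 and 440.0 normalized counts at 2 dpi, against 609, 1052, 892 and 699.7 in sham (log2 fold change -0.85 ± 0.20, adjusted p = 0.00382). All 2 dpi samples lay below all sham samples. Cxcr4, the receptor of Cxcl12, had 165, 137, 105 and 69.6 at 2 dpi, against 43.1, 81.1, 28.9 and 52.2 in sham, with sham 2 above 2 dpi 4 (1.24 ± 0.28, adjusted p = 0.00323).

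Of 26 tested receptors of interleukins, colony-stimulating factors and interferons, none was higher with either scaling, 12 were lower with the housekeeping scaling and 6 with TMM (Csf1r, Csf3r, Ifngr1, Il10ra, Il21r and Il6ra), and the median was -0.48. Ifngr1, a chain of the interferon γ receptor, had 517, 712, 585 and 559.5 normalized counts at 2 dpi, against 893, 1157, 1262 and 876 in sham (log2 fold change -0.82 ± 0.16, adjusted p = 0.00176). Csf3r, the receptor of granulocyte colony-stimulating factor, had 376, 572, 414 and 405 at 2 dpi, against 640.3, 990.0, 931 and 605 in sham (-0.84 ± 0.18, adjusted p = 0.00225). Il21r, the interleukin 21 receptor, had 218, 298, 254 and 251 at 2 dpi, against 360.3, 583, 476 and 366 in sham. All 3 genes were apart between groups. Il10ra, a chain of the receptor of the anti-inflammatory interleukin 10, had 539, 813, 550.3 and 508 at 2 dpi, against 803, 1032, 1306 and 849 in sham, with 2 dpi 2 just above sham 1 (-0.73 ± 0.19, adjusted p = 0.00774). In the TNF family, Tnfrsf14, a receptor of the ligand LIGHT, and the adaptor Traf5 were lower (-0.80 ± 0.19 and -0.78 ± 0.20). In all, 4 of 17 tested were lower with the housekeeping scaling and 3 with TMM, beside 28.1% and 12% of all tested genes. Tnf, described above, was the 1 higher gene, beside 7.24% of all tested genes with the housekeeping scaling.

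Kinases and transcription factors made up many of the lower genes. Of 12 tested genes of the kinase list, which also holds the phosphatase gene Phlpp1, 8 were lower, Prkcd from above among them. They became 5 without 2 dpi 3, sham 1 or sham 2, 4 with TMM and none with positive controls alone. Beside them stand 28.1% of all tested genes lower with the housekeeping scaling and 12% with TMM. Mapkapk2 was the 1 higher gene, beside 7.24%, and the median of -0.60 was the lowest of the lists drawn in the plot of lists. Mapk14, which encodes the kinase p38α, had 167, 236, 163 and 163 normalized counts at 2 dpi, against 286, 398, 352 and 237 in sham (log2 fold change -0.80 ± 0.17, adjusted p = 0.00225). Mapkapk2, a kinase that p38α activates, had 444, 432, 429 and 338 at 2 dpi, against 274, 337, 262 and 257 in sham. Neither pair of groups overlapped, though the rise of Mapkapk2 (0.54 ± 0.19, adjusted p = 0.0296) lost its call when any of 2 dpi 1, 2 and 3 and sham 1, 3 and 4 was left out (adjusted p up to 0.078). The tyrosine kinases Src and Abl1 were lower, Src at 83.0 to 114 at 2 dpi against 122 to 209 in sham, and Abl1 at 97.7 to 149.7 at 2 dpi against 170.3 to 268 in sham.

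Of 32 tested transcription factors of blood and immune lineages, 14 were lower with the housekeeping scaling (9 without 2 dpi 3 or sham 2) and 8 with TMM. Over all tested genes these shares were 28.1% and 12%. The 1 factor higher in both scalings was Nfil3. The median was -0.52. The calcium-regulated factors Nfatc1 and Nfatc2 were lower, Nfatc2 with 107, 136, 109 and 121 normalized counts at 2 dpi, against 194, 276, 246 and 159 in sham (log2 fold change -0.89 ± 0.17, adjusted p = 0.00161). Nfatc1 had 75.6, 84.6, 78.2 and 88.3 at 2 dpi, against 117, 206, 167 and 106 in sham (-0.87 ± 0.19, adjusted p = 0.00323). Their groups were apart, as were those of Ikzf1, Pou2f2, Batf3, Irf5 and Tcf4. Ikzf1, the lymphoid and myeloid factor Ikaros, had 109, 147, 132 and 135 at 2 dpi, against 157, 292, 292 and 191 in sham. Irf5, which drives cytokine genes after Toll-like receptors, had 271, 384, 295 and 299 at 2 dpi, against 401, 636, 616 and 459 in sham (-0.76 ± 0.19, adjusted p = 0.00598). Nfil3, a basic leucine zipper factor, had 131, 122, 126 and 109 at 2 dpi, against 80.3, 92.0, 65.2 and 86.1 in sham, and its call (0.60 ± 0.19, adjusted p = 0.0198) was lost without 2 dpi 1, 2 dpi 3 or sham 3 (adjusted p up to 0.0705).

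Genes of apoptosis and DNA damage were lower or not called with the housekeeping scaling. Of 14 tested, 6 were lower with that scaling, beside 28.1% of all tested genes, with a median of -0.54. With TMM 4 were lower (Bid, Abl1, Casp8 and Cul9), beside 12%, and 1 was higher, beside 13.1%. Bid, which carries the death signal to mitochondria, had 51.2, 48.6, 56.5 and 60.2 normalized counts at 2 dpi, against 95.9, 133, 104 and 83.1 in sham (log2 fold change -0.93 ± 0.20, adjusted p = 0.00225). Casp8, the caspase that cleaves it, had 275, 374, 313 and 268 at 2 dpi, against 384, 546, 600.4 and 427 in sham (-0.67 ± 0.17, adjusted p = 0.0059). Both sets of groups were apart. Cul9, a cullin that binds p53, lost its call without sham 2 (adjusted p = 0.0515), where the list held 3 lower genes. Of 15 tested genes of the NF-κB list, which holds kinases, inhibitors and others beside the subunits, 5 were lower. They were Chuk, Ikbkap, Ikbkg, Nfkb1 and Tbk1, and 1 of them, Chuk, the kinase IKKα, was lower in both scalings. Ikbke was higher, though not when any of 2 dpi 1, 2 and 3 and sham 1, 3 and 4 was left out (adjusted p up to 0.156). The 5 lower genes became 2 without 2 dpi 3, 2 dpi 4 or sham 2, and 3 without 2 dpi 1 or sham 1. Of 13 tested genes of the JAK-STAT list, which also holds Ptpn2, Socs1 and Socs3, 4 were lower with the housekeeping scaling (Jak1, Ptpn2, Stat5b and Stat6). The 4 became 1 without 2 dpi 3 or sham 2, 2 without sham 3 and 7 without sham 4. With TMM none was called in either direction. The lower shares of both lists with the housekeeping scaling are near the 28.1% over all tested genes.

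Complement, Fc receptors and antigen presentation held calls that rest on the scaling. C1qa and C1qb, chains of the first component of complement, averaged 3486 ± 431 and 4661 ± 622 normalized counts at 2 dpi, and 4507 ± 356 and 6125 ± 389 in sham (SD, n = 4 each). They were lower with the housekeeping scaling (adjusted p = 0.0297 and 0.0214) and not with TMM (adjusted p = 0.526 and 0.372), and C1qa lost its call without 2 dpi 1, 2 dpi 3, 2 dpi 4 or sham 2, C1qb without 2 dpi 1, 2 dpi 3 or sham 2 (adjusted p up to 0.102 and 0.0744). Of 10 tested complement genes, 1 was higher and 3 were lower with the housekeeping scaling, beside 7.24% and 28.1% of all tested genes. The median of the list was 0.15. With TMM 3 were higher and none was lower, beside 13.1% and 12%. The gene higher with the housekeeping scaling was Cfp, which encodes properdin. Cfp had 75.6, 62.2, 62.7 and 40.6 at 2 dpi, against 29.4, 48.3, 25.1 and 23.5 in sham (log2 fold change 0.96 ± 0.29, adjusted p = 0.0147, and 0.0536 without 2 dpi 1). Of 6 tested Fc receptors, 3 were lower with the housekeeping scaling (Fcgr1, Fcgr3 and Fcgrt) and none with TMM. Among all tested genes 28.1% and 12% were. Fcgr3, a receptor for immune complexes, had 519, 566, 504 and 564 at 2 dpi, against 822, 914, 836 and 708 in sham (-0.61 ± 0.17, adjusted p = 0.0109, and 0.112 with TMM). The class II list also holds Cd1d1 and the protease gene Ctss, which are not class II genes. Of its 8 tested genes, 4 were lower with the housekeeping scaling (Ctss, Cd1d1, H2-DMa and H2-Ob) and none with TMM. The 4 became 1 without 2 dpi 3 or sham 2, and 2 without 2 dpi 4. H2-Aa, H2-Ab1, H2-Eb1 and Cd74 were not called. Of 10 genes of the class I and proteasome list, 1 was lower with the housekeeping scaling and none with TMM. Cd74, the class II invariant chain, averaged 721 ± 162 at 2 dpi and 841 ± 178 in sham (SD, n = 4 each; adjusted p = 0.33).

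Of 14 tested interferon-induced genes, 1 was higher and 2 were lower with the housekeeping scaling, against 4 higher and none lower with TMM and 5 higher and none lower with DESeq2's own size factors. Ifitm1, an antiviral membrane protein, had 167, 151, 154 and 60.2 normalized counts at 2 dpi, against 54.8, 70.2, 52.4 and 47.1 in sham (log2 fold change 1.26 ± 0.28, adjusted p = 0.00323). In 2 dpi 4 it was within the sham range, and the other samples of the group lay well above it. Of 8 tested genes on the list of lipid, oxidative and nucleotide mediators, not all of them enzymes, Ptgs2 was higher and Entpd1, Hfe and Ncf4 lower. With TMM 2 of the 8 were higher and 1 was lower. Ptgs2, the inducible cyclooxygenase of prostaglandin synthesis, had 501, 414, 427 and 221 at 2 dpi, against 151, 219.8, 117 and 149 in sham (1.31 ± 0.25, adjusted p = 0.00161), so 2 dpi 4 just cleared sham 2. Among adhesion genes, Cd44, the receptor of hyaluronan, had 227, 207, 129 and 117 at 2 dpi, against 33.3, 73.3, 11.2 and 53.0 in sham, without overlap (2.04 ± 0.47, adjusted p = 0.00534). Cd24a, a sialoglycoprotein that binds Siglec receptors, had 38.3 to 76.8 at 2 dpi and 17.1 to 37.4 in sham, and lost its call without sham 3 (adjusted p = 0.0633).

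**Figure D3:**
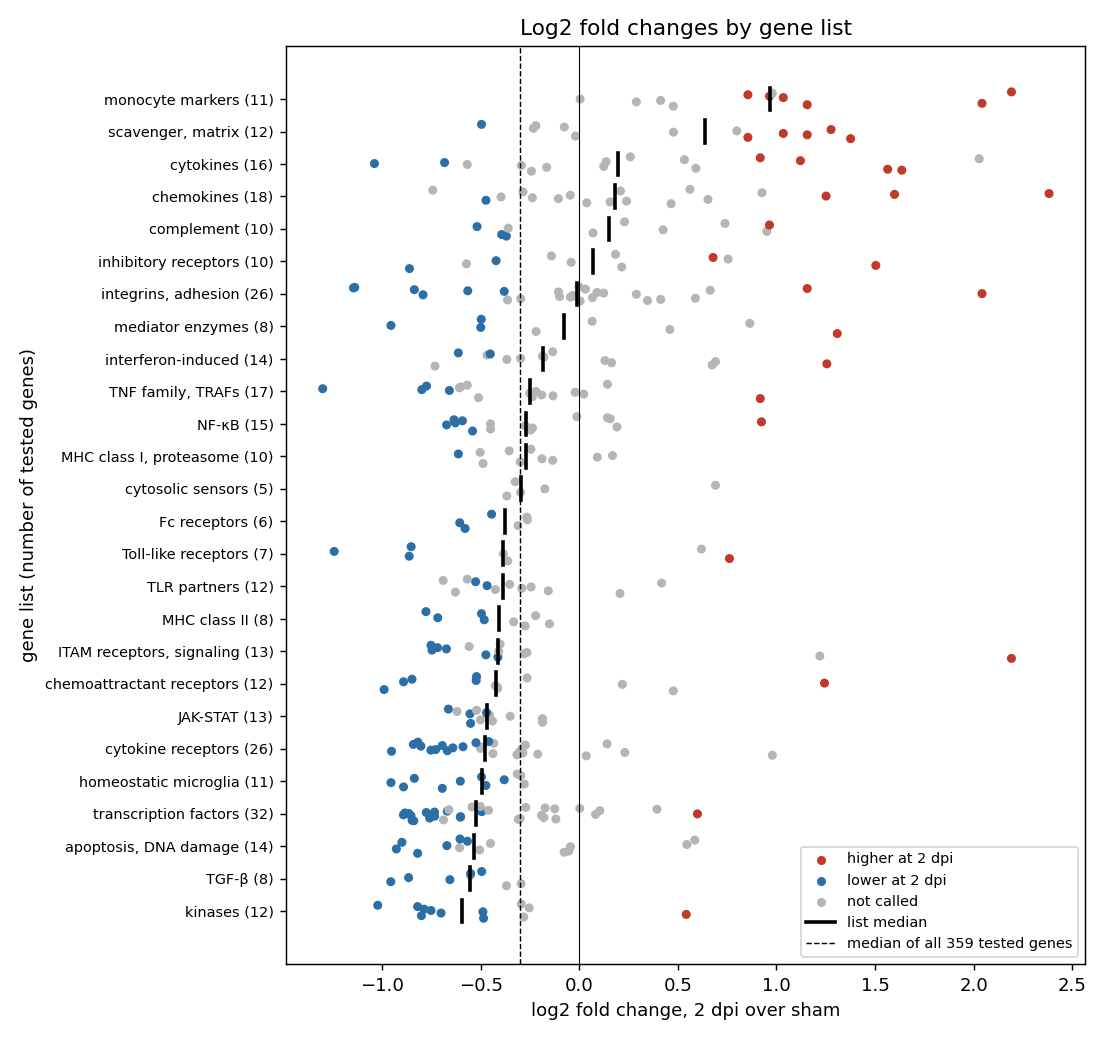
Log2 fold change, 2 dpi over sham, of each tested gene (points; red called higher, blue called lower, gray not called) in 26 gene lists, with the list's median (black tick) and the median of all 359 tested genes, -0.30 (dashed line). The monocyte and the scavenger and matrix lists have the highest medians, 0.96 and 0.64, and the kinase list has the lowest, -0.60.

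Markers of other cells were counted beside these results. Of 11 monocyte and macrophage markers, all tested, 6 were higher (Cd36, Cd44, Cfp, Clec4e, Fn1 and Tgfbi), beside 7.24% of all tested genes. After the negative-control mean was subtracted, the summed counts of the list were 1837, 1680, 1467 and 1313 in 2 dpi 1 to 4. In sham 1 to 4 they were 514.7, 692.6, 520 and 668.3. The sums ranked the 2 dpi samples 1, 2, 3 and 4 from the highest, as did 14 of the 26 higher genes. Of the 26, 6 are on the monocyte list and enter its sums, and 20 are not. The shared order is therefore partly built in and is no separate support. The part of such cells in the changes was not tested. Ccr2, the defining chemokine receptor of blood monocytes, was above background in 4 samples at 2 dpi and 2 in sham and was not called. The sums of 12 homeostatic genes were 21380 to 28050 at 2 dpi, against 28830 to 39820 in sham, without overlap. All such sums use the housekeeping scaling, and the narrow gap between 28050 and 28830 was not examined with TMM.

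The neutrophil sums were 2348, 1805, 10030 and 1059 at 2 dpi, against 1265, 1460, 1128 and 9120 in sham, so 1 sample of each group stood apart, 2 dpi 3 and sham 4. These sums include Csf3r, described above, the 1 called gene of the list, which was lower in both scalings. S100a9, an abundant neutrophil protein, had 938, 524, 4595 and 286 normalized counts at 2 dpi, against 378, 295, 114 and 4179 in sham. Its partner S100a8 had 928, 648, 4170.4 and 322 at 2 dpi, against 296, 214, 92.0 and 3595 in sham. Neither was called, and without both samples 15 genes were called higher and 85 lower. Endothelial sums were 466.7 to 610.7 at 2 dpi and 524.6 to 763 in sham. Of 18 T cell genes, 3 were above background in any 2 dpi sample and 6 in any sham sample, and Cd3e, Cd8a, Lck and Foxp3 were above it in none. The B cell marker Ms4a1 and the killer cell markers Klrd1, Gzmb and Prf1 were above it in none of the 8 samples.

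**Figure D4:**
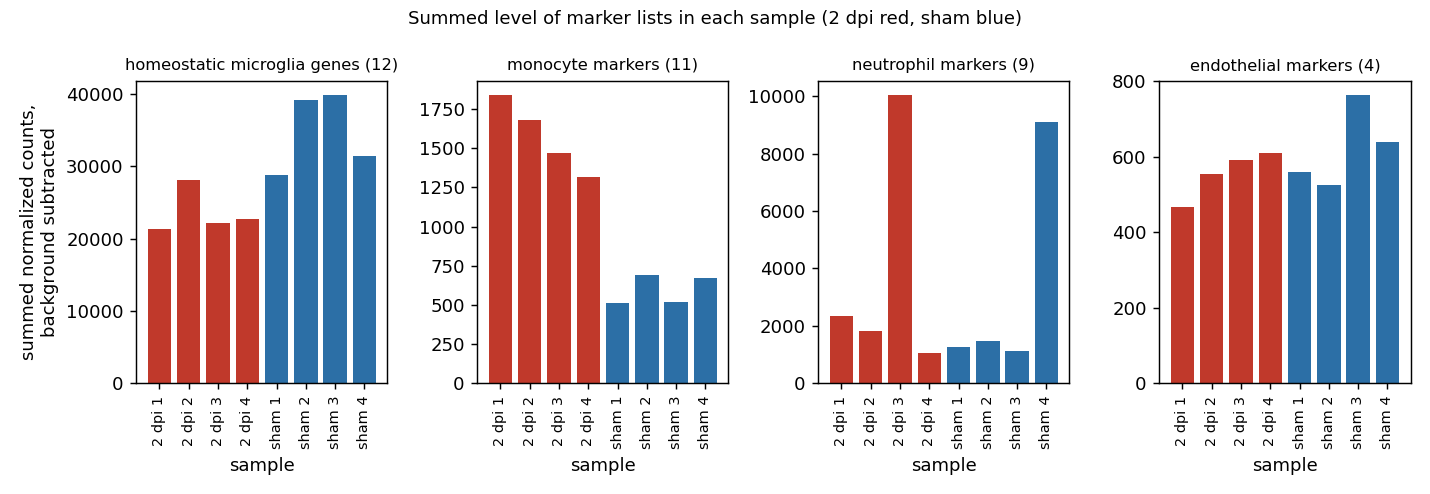
Summed normalized counts, background subtracted, of homeostatic (12 genes), monocyte (11), neutrophil (9) and endothelial (4) markers in the 4 samples at 2 dpi (left) and the 4 sham samples (right). Monocyte sums are 1313 to 1837 at 2 dpi and 514.7 to 692.6 in sham, and the neutrophil sums of 2 dpi 3 and sham 4 stand apart at 10030 and 9120.

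Pdgfrb, a receptor of pericytes, was called higher at 74.4, 81.7, 78.2 and 47.7 normalized counts at 2 dpi, against 35.2, 48.3, 39.0 and 24.3 in sham, and lost its call without 2 dpi 1, 2 dpi 2, 2 dpi 3 or sham 4 (adjusted p up to 0.0626). Pdgfb, the ligand it binds, had 733, 1050.0, 823 and 1035 at 2 dpi, against 1237, 1762, 1791 and 1341 in sham. The groups of Pdgfb were apart and it was lower in both scalings (log2 fold change -0.75 ± 0.19, adjusted p = 0.00565).

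The 14 housekeeping genes set the scale and so carry no test. Divided by the sham mean, their 2 dpi means ran from 0.665 for Hprt to 1.41 for Gusb, with 7 above 1 and 7 below. Gusb, which encodes the lysosomal enzyme β-glucuronidase, had 714, 938, 803 and 796 normalized counts at 2 dpi, against 578, 583, 580.1 and 571 in sham, without overlap. Polr2a, the largest subunit of RNA polymerase II, lay lower without overlap, at 135 to 169 at 2 dpi and 174 to 232 in sham.

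**Figure D5:**
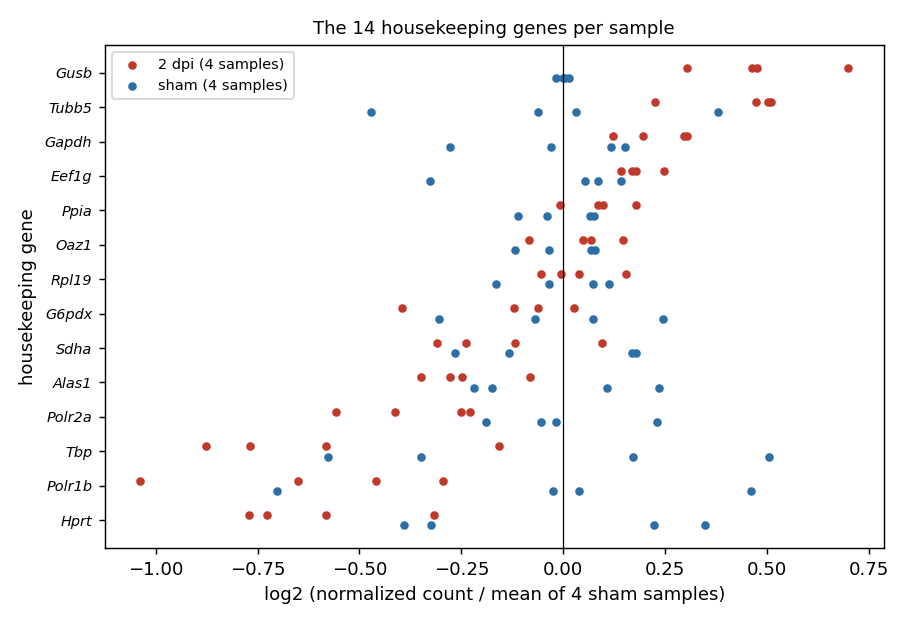
Log2 of the normalized count of each of 14 housekeeping genes over its sham mean on the x axis, with the 4 samples at 2 dpi (red) above the 4 sham samples (blue) in each row. Gusb stands highest at 2 dpi, with a ratio of means of 1.41, and Hprt lowest, with 0.665.

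Some genes were above background in only 1 group. Ifnb1, which encodes interferon β, was above it in all 4 samples at 2 dpi, with 96.4, 67.1, 89.3 and 23.4 normalized counts, and in no sham sample, with 25.5, 21.8, 9.62 and 16.2, and was at least 1.96-fold higher against the mean sham limit. It was called with TMM (adjusted p = 0.0443) and not with the housekeeping scaling (adjusted p = 0.0546). Bst1, an ADP-ribosyl cyclase of myeloid cells, was above background in 4 samples at 2 dpi and none in sham, at 28.1 to 63.4 at 2 dpi against 10.2 to 37.4 in sham, a fold of at least 1.17. With TMM it was called (adjusted p = 0.0328), as were Pdcd1 and Serping1 (adjusted p = 0.0161 and 0.0274), and with the housekeeping scaling none of the 3 was (adjusted p = 0.106, 0.0632 and 0.0853). Pdcd1, Ppbp, Serping1 and Lilra6 were above background in at least 3 samples at 2 dpi and none in sham, but their bound was under 1 and no fold is given. Defb1, a defensin, was above it in 3 sham samples and none at 2 dpi. Sham 1 and sham 2 had the highest limits, 51.3 and 53.0, so a gene had to be brighter there to pass.

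Cells of the same gate at 14 dpi, from the same run, were compared with 2 dpi for the 24 largest changes against sham and for Il1b, picked after its values were seen. The 2 comparisons share the 2 dpi samples. Of the 359 genes, 10 were higher (2.79%) and 142 lower (39.6%) at 2 dpi than at 14 dpi with the housekeeping scaling, and 23 (6.41%) and 44 (12.3%) with TMM. Tgfbi averaged 461 ± 76.0 normalized counts at 2 dpi and 168 ± 56.6 at 14 dpi (SD, n = 4 each), a log2 difference of 1.44 ± 0.20 (adjusted p = 3.71e-05). Msr1 averaged 165 ± 19.96 at 2 dpi and 64.3 ± 10.5 at 14 dpi (1.34 ± 0.22, adjusted p = 0.000238), and Cd36 89.3 ± 15.5 at 2 dpi and 41.5 ± 16.3 at 14 dpi (1.13 ± 0.27, adjusted p = 0.00266). These 3 were higher at 2 dpi in both scalings and with any single sample left out. Cxcl1 was higher too (0.88 ± 0.32, adjusted p = 0.0357), but not without 2 dpi 1, 2 dpi 2, 2 dpi 3, 14 dpi 1 or 14 dpi 3 (adjusted p up to 0.11).

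Other genes were lower at 2 dpi than at 14 dpi. Tlr2 averaged 635 ± 121 at 2 dpi and 1034 ± 214 at 14 dpi (log2 difference -0.70 ± 0.18, adjusted p = 0.0048), which was not called with TMM (-0.26, adjusted p = 0.239) or positive controls alone (adjusted p = 0.955). Entpd1 averaged 373 ± 41.6 at 2 dpi and 744 ± 156 at 14 dpi, and was lower at 2 dpi with the housekeeping scaling (-0.996 ± 0.19, adjusted p = 0.000529) and with TMM (-0.55, adjusted p = 0.018), though not with positive controls alone (adjusted p = 0.776). Cx3cr1 averaged 3083 ± 441 at 2 dpi and 4768 ± 385 at 14 dpi (-0.63 ± 0.15, adjusted p = 0.00314), and was not called with TMM (adjusted p = 0.356). For Cd44, Fn1 and Il1b no difference between 2 and 14 dpi was called in either scaling, with log2 differences of 0.45 ± 0.44, 0.57 ± 0.32 and -0.25 ± 0.32 (adjusted p = 0.423, 0.174 and 0.554).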

How the data were processed

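The authors exported the raw nCounter counts, deposited here as whole numbers per probe and handled as estimated counts, with no normalization. The second deposited table holds a normalized signal, made by the authors with NanoStringNorm. Recomputing it as the count minus the mean of that sample's negative controls, floored at 0 and scaled to a housekeeping sum of 9027.27, matched every value to within 4.39e-06. The software versions used by the authors are not given in the sources used here. The methods tested with NanoStringDiff, which was not used here.

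Raw counts were scaled by a positive-control factor times a housekeeping factor (the median over 14 genes of the ratio to the gene's mean), and genes above background in at least 3 of the 15 samples were tested, 359 of 547. The test was the quasi-likelihood F test of edgeR 4.0.16 under R 4.3.3, fitted over all 15 samples with 1 mean for each group, with Benjamini-Hochberg adjustment at 0.05. Values after ± are SE of the fit for log2 fold changes and SD otherwise. Between groups, single values were compared by exact permutation tests. A fold of "at least" is the 2 dpi mean over the mean sham background limit. The script was checked on simulated data with known changes. Other versions were limma 3.58.1, DESeq2 1.42.0, pandas 2.3.3 and numpy 2.4.6.

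The comparison and the 34 gene lists were chosen with earlier results of these data known, the paper's included. Named genes were the 12 largest rises and 12 largest falls among genes called in both scalings without overlap between groups, up to 4 called members with the smallest p of each list, genes above background in at least 3 samples of 1 group and none of the other, and the housekeeping genes. Other named genes, among them Tnf, Ikbke, Mapkapk2, Nfil3, Irf5, Irf8, Il10ra, Pdgfb, Tcf4, Trem2, Cd81, Ccr2, S100a8 and S100a9, were picked after their values were seen. Alternatives were TMM factors, housekeeping or positive-control factors alone, the geometric mean of the housekeeping genes, DESeq2 with its own or the same factors, subtraction of the negative controls, no filter or a stricter one (326 genes), the 8 samples alone, limma on log2 of the authors' values plus 1, and leaving out each sample. Added after seeing the data were housekeeping factors without Gusb and Tubb5, a fit without sham 4 and 2 dpi 3, and the alternatives of the comparison with 14 dpi. The 60 dpi samples entered only the shared fit. Some genes that the rule names are not reported here.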

Additional observations from a re-analysis of the deposited data

Results flagged for a closer look

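In 8 of 196 groups of 4 samples, 1 sample stood far from the other samples of its group by Dixon's criterion, where chance gives about 9.8. Of these, 4 were 2 dpi 2, which was the highest of its group: Blnk at 286 normalized counts, Il16 at 165, Mapk14 at 236 and Irgm1 at 119. These are genes called lower at 2 dpi, so 2 dpi 2 lay nearest to sham. Defb1, which was below the background limit in every 2 dpi sample, was also highest in 2 dpi 2, at 23.3. Ifitm1 was low in 2 dpi 4, at 60.2, where the other 2 dpi samples had 151 to 167. In sham 2, Cxcl3 was high at 60.8, where the other sham samples had 11.2 to 14.7, and Jak1 was high at 307.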

How the results depend on the processing

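The split of higher against lower genes depended on the scaling. The 26 higher genes became 47 with TMM and 57 with DESeq2's own size factors, and 15 without the samples high in S100a8 and S100a9. They were 15 to 36 with 1 sample left out. The 101 lower genes became 43 with TMM, 39 with DESeq2's own size factors and 1 with positive controls alone, and were 60 to 117 with 1 sample left out. With positive controls alone the SE of lower genes such as Abl1 and Bid, picked after their values were seen, grew. Abl1 stood at -0.69 ± 0.44, against -0.82 ± 0.17 in the main fit, and Bid at -0.70 ± 0.41, against -0.93 ± 0.20. The loss of these calls thus does not show that the changes were absent. Higher genes were 20.5% of the calls, against 52.2% with TMM, 59.4% with DESeq2's own size factors, 95.2% with positive controls alone and 14.5% to 32.4% otherwise. The 26 higher in both scalings were 15 to 36 with 1 sample left out and 15 without both samples high in S100a8 and S100a9. The 43 lower in both were 18 to 43 with 1 left out, and 13 with no background filter, which tests 547 genes. The median log2 fold change of -0.30 became -0.040 with TMM, -0.12 with positive controls alone and -0.016 with DESeq2's own size factors. Lilra6 (-0.02) reversed to 0.29 with TMM, 0.42 with positive controls, 0.044 with the geometric mean, 0.30 with DESeq2's own size factors, 0.40 with negative controls subtracted, 0.48 with limma on the authors' values and 0.056 without Gusb and Tubb5, and ranged from -0.33 to 0.42 with 1 sample left out. It was called in none, and the cause was not tested. Of 98 named genes, 91 were called, 59 kept their call whichever sample was left out, and 11 were the same under every alternative. Dim genes limit the precision, since 10 of the 26 higher genes had a mean under 100 normalized counts in both groups and 8 were above background in at most 1 sham sample.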

Other observations

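Ncam1, Thy1 and Icam5, genes of neural cells, and Ptk2 varied among the sham samples. Ncam1, a neural adhesion molecule, had 65.9, 98.2, 70.7 and 86.7 normalized counts in 2 dpi 1 to 4, against 323, 214, 140.1 and 52.2 in sham 1 to 4. Thy1, a surface protein of neurons, had 18.3 to 24.3 at 2 dpi, against 94.0, 56.1, 36.9 and 19.1 in sham, and Ptk2, the focal adhesion kinase, had 50.9 to 65.6 at 2 dpi, against 217, 140.3, 85.0 and 48.6 in sham. Icam5, an adhesion molecule of neuronal dendrites, had 69.5 to 80.7 at 2 dpi, against 155, 161, 142 and 62.5 in sham. Each was called lower at 2 dpi in edgeR with the housekeeping scaling (adjusted p = 0.0372, 0.0281, 0.0198 and 0.0224) and none with TMM (adjusted p = 0.125, 0.0957, 0.0884 and 0.0846). Without sham 1, sham 2 or 2 dpi 3 none of them was called (adjusted p up to 0.118). In all of them sham 4 was the lowest sham sample and within the range of the 2 dpi samples or below it. The list of other brain cells holds Ncam1 and Icam5, and 6 of its genes were tested. Pdgfrb was higher in both scalings, and App, Cx3cl1 and Mbp were not called with the housekeeping scaling. The summed counts of this list were 1093 to 1258 at 2 dpi and 789.9 to 1463 in sham, with overlap. The part of neural material in other genes was not tested.

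With TMM, 21 genes were called higher at 2 dpi that were not called with the housekeeping scaling, all picked here after their values were seen. Among them, Ccl2, the chemokine for monocytes, had 414, 447, 362 and 341 normalized counts at 2 dpi, against 264, 279, 243 and 344 in sham (log2 fold change 0.69 with TMM, adjusted p = 0.0274, and 0.47 ± 0.23 with the housekeeping scaling, adjusted p = 0.111). Ifi204, an interferon-induced DNA sensor, had 58.6, 58.3, 41.6 and 35.2 at 2 dpi, against 37.2, 34.3, 15.5 and 36.1 in sham (0.92 with TMM, adjusted p = 0.0225). C4a, a complement component, had 69.6 to 106 at 2 dpi and 46.4 to 95.9 in sham (0.69 with TMM, adjusted p = 0.0443).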
